A study of Mus musculus with 16 samples.

Results

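The genes described here are 35 genes of DNA replication and cell division, taken by symbol from the textbook machinery of licensing, S phase and mitosis. The choice was made with earlier results of these data known. Each of the 35 symbols matched 1 row of a deposited table of 19449 genes. They comprise 12 genes of replication licensing and the replicative helicase, 7 of DNA synthesis and nucleotide supply, 4 of cell cycle entry and 12 of mitosis. All 35 had counts in every library, and 34 passed the filter on low counts. Bub1, a mitotic checkpoint kinase gene with 3 to 19 counts a library, did not. The mitosis group therefore had 11 tested members.

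The data are RNA-seq libraries from whole hippocampus of mice labelled 3 months old. Mice were wild type (WT) or TSPOKO, in which Tspo, the gene of the translocator protein of the outer mitochondrial membrane, was deleted. The injection was PBS in 2 groups and, in the other two, lipopolysaccharide (LPS), a component of bacterial walls that provokes inflammation. Each of the 4 groups held 4 libraries, of 30198619 to 50009041 counts. Neither the dose, the time after injection, the strain, the sex nor the way the deletion was made is given in the labels. Replicates are not stated to be separate animals, so every p-value measures only the spread between these libraries. Hippocampal neuron markers were present, with 8 of 8 tested and a summed level of 3730 to 6677 CPM (counts scaled to library size).

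Some libraries stood apart from their labels. The library labelled knockout PBS replicate 1 held Tspo at 2.33 CPM, as high as wild-type PBS libraries (2.06 to 5.17 CPM), where the other 7 knockout libraries held 0.152 to 0.486 CPM. Wild-type LPS replicate 1 held Lcn2, an acute-phase gene, at 0.641 CPM against 209 to 238 CPM in the other 3 wild-type LPS libraries. Lcn2 was at most 0.302 CPM in the knockout, LPS libraries included. Wild-type PBS replicate 1 and wild-type LPS replicate 1 lacked most choroid plexus transcript (Ttr at 1.42 and 1.50 CPM, against 518 to 3119 CPM elsewhere). Title codes of unstated meaning largely follow the groups, so code and group mostly cannot be told apart.

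Before a cell copies its DNA, the loading factors Cdc6 and Cdt1 place a ring of Mcm proteins (Mcm2 to Mcm7) on each origin, a step called licensing. Cdc45, the GINS complex and Mcm10 then turn the ring into an active helicase, and Pcna, a sliding clamp, holds the polymerases on the template. E2F factors and the E and A cyclins drive this program, and cyclin B with Cdk1, the kinases Plk1 and Aurkb and a set of spindle motors carry out mitosis. In the adult hippocampus most cells are neurons that no longer divide, and dividing cells are mainly neural progenitors of the dentate gyrus, oligodendrocyte precursors and some glia and vessel cells. In whole tissue, fewer dividing cells and less RNA per cell cannot be told apart.

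Divided by exon length, the levels of the 35 genes spanned a wide range. The 12 highest were genes of synthesis, licensing and entry, and below them the roles were mixed. Pcna stood highest, with a mean of 14.4 CPM per kilobase over the 16 libraries. It was followed by Ccne1, the gene of cyclin E1, at 3.91, and the transcription factor gene E2f1 at 3.33 CPM per kilobase. The helicase genes Mcm4, Mcm7 and Mcm6 came next at 3.23, 2.71 and 2.48 CPM per kilobase. The highest mitosis gene, at rank 13, was Plk1, a kinase of centrosome maturation and spindle assembly, at 0.645 CPM per kilobase. Brca1, Cdc6, Mcm10 and Tk1 (0.104 CPM per kilobase) lay at ranks 27 to 32, below most mitosis genes. The proliferation markers Top2a, a topoisomerase that untangles chromosomes, and Mki67, a coat protein of mitotic chromosomes, stood at 0.211 and 0.188 CPM per kilobase. Cdk1, the main mitotic kinase, and Bub1 were lowest at 0.0665 and 0.0525 CPM per kilobase. In CPM not divided by length, 10 members averaged below 1, 14 between 1 and 5, and 11 above 5. For the genes below 1 CPM, single libraries held few counts: Ccnb1 8 to 36 and Aurkb 3 to 18.

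RefSeq promoter windows (GRCm38.p6) were found for 29 of the 35 genes, and the 250 bases before each start were read. Words of E2F sites (the letters TTCCCGC, those of the variant TTGGCGC and those of the variant TTCGCGC, on either strand) lay in 9 of 29 windows, or 31%, against 6.69% of all 32851 promoters in the table. The CCAAT box, bound by NF-Y, lay in 22 of 29, or 75.9%, against 33.8%. An E2F word on the opposite strand, GCGCCAA, can share letters with a CCAAT box. The word TTTGAA, the cell cycle homology region through which the MuvB complex acts on mitotic genes, lay in 7 of 29, or 24.1%, against 16%. By role, E2F words lay in 4 of 9 licensing windows and 3 of 10 mitosis windows. TTTGAA lay in 2 of 9 licensing and 5 of 10 mitosis windows, and CCAAT in 7 of 9 and 9 of 10. Differences between the roles were not tested. A match is a description of letters and not a bound site.

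Windows of 5 genes that the results turn on are printed 5′ to 3′ on the strand of the gene, with E2F, TTTGAA and CCAAT words of either strand in capitals: Cdc45 (chr16:18811973-18812222, minus), Mcm5 (chr8:75109259-75109508, plus), Plk1 (chr7:122159185-122159434, plus), Mki67 (chr7:135716380-135716629, minus) and Top2a (chr11:99024190-99024439, minus).
Cdc45: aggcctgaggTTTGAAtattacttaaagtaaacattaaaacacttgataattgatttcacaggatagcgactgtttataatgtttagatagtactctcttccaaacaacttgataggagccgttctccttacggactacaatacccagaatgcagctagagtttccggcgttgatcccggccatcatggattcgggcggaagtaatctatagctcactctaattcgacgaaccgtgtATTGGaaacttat
Mcm5: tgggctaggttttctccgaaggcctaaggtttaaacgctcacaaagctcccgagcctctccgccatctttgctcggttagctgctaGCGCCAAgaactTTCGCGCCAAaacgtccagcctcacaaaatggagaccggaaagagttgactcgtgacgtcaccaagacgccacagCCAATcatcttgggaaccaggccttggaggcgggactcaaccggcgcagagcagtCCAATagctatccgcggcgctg
Plk1: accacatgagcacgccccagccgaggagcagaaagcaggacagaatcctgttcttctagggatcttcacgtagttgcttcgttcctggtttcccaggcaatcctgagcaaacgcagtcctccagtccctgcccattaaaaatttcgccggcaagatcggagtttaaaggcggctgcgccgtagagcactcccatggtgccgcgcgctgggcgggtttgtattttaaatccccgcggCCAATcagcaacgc
Mki67: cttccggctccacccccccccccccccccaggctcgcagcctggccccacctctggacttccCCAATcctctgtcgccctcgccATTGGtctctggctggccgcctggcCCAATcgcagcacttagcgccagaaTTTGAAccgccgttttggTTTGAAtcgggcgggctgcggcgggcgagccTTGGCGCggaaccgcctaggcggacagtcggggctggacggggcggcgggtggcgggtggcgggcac
Top2a: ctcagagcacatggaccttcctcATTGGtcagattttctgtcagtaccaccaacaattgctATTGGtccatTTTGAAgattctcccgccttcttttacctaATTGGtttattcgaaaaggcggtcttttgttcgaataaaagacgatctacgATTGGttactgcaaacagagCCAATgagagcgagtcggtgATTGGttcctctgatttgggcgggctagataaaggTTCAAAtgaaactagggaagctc
The Mcm5 window held E2F words and CCAAT boxes. The Top2a window held many CCAAT boxes with TTTGAA words, and the Mki67 window held all 3 kinds. Of the 2 genes called in any comparison below, Cdc45 held a TTTGAA word and a CCAAT box, and Plk1 only a CCAAT box.

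**Figure D1:**
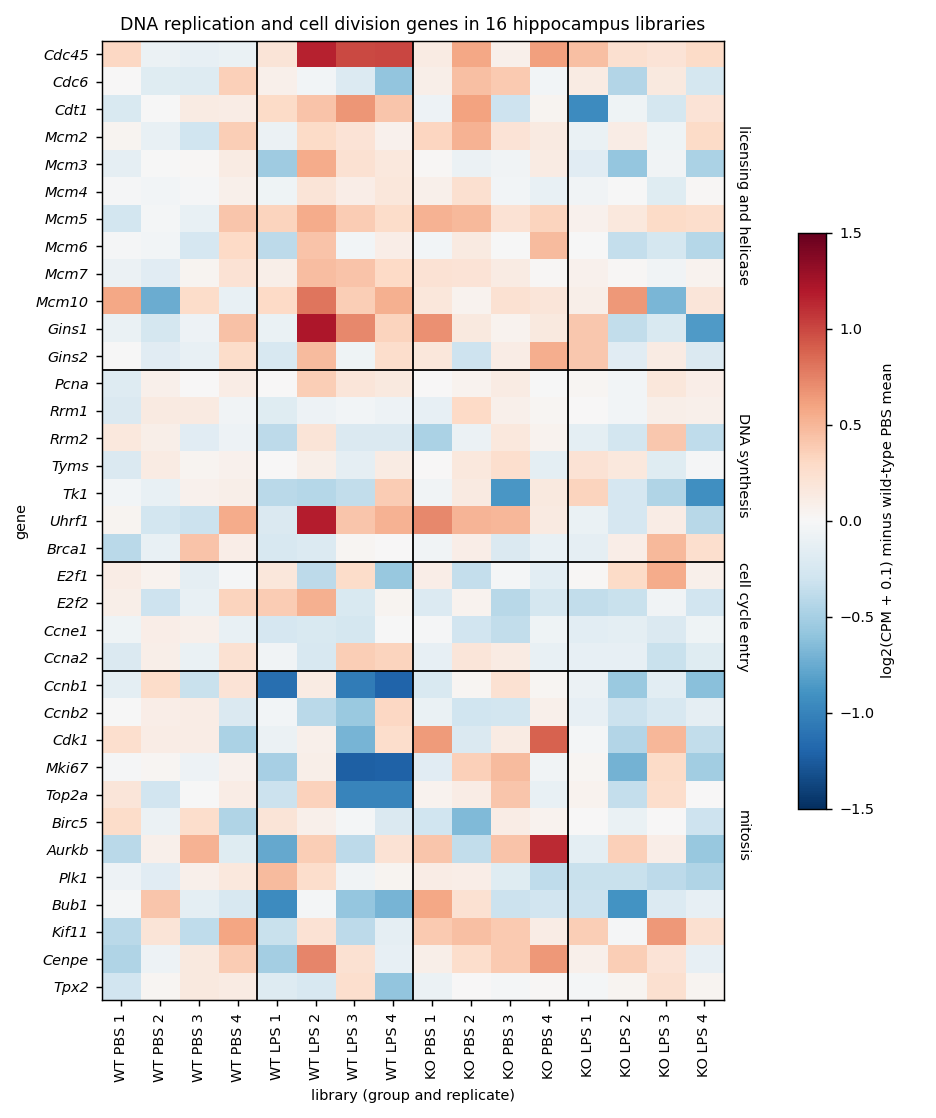
Level of each of the 35 genes (rows, grouped by role) in each of the 16 libraries (columns, grouped by genotype and injection), as log2(CPM + 0.1) minus the wild-type PBS mean, with colours saturating at 1.5. Cdc45 is red in wild-type LPS replicates 2, 3 and 4, and Mki67 and Top2a are dark blue in wild-type LPS replicates 3 and 4.

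In wild-type hippocampus, 1 of the 34 tested genes passed between LPS and PBS: Cdc45, which rose. Across all genes tested, 8.57% passed in this comparison (4.72% higher and 3.85% lower), so the share of members called was below that of the table. A gene passed at an adjusted p under 0.05 over all 16269 genes tested. The estimates split by role. Of the 12 licensing and helicase genes, 11 had a log2 fold change above 0, with a median of 0.24, and of the 11 mitosis genes 2 did, with a median of -0.16. Over all genes tested 50.6% were above 0. Single libraries moved these values. Without wild-type LPS replicate 2, 8 licensing genes were above 0. The mitosis median was -0.27 without wild-type PBS replicate 1 and -0.02 without wild-type LPS replicate 3, where 5 of the 11 genes were above 0.

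Cdc45 is the helicase activator gene (ENSMUSG00000000028, chromosome 16, 18780447 to 18811987, minus strand of GRCm38). It stood at 1.33, 0.995, 0.963 and 0.985 CPM in wild-type PBS replicates 1 to 4 and at 1.22, 2.48, 2.20 and 2.23 CPM in wild-type LPS. The 3 libraries with an Lcn2 response lay above every PBS library, and wild-type LPS replicate 1 lay among the PBS libraries, so the groups overlapped. The log2 fold change was 0.93 ± 0.22 (SE, n = 4 and 4; adjusted p = 0.0202, edgeR). Its counts ran from 29 to 124 over the 16 libraries. The fold change was 1.10 ± 0.19 with wild-type LPS replicate 1 left out (adjusted p = 0.000715). The call was lost without any 1 of 5 other libraries (wild-type PBS replicate 2 or 3, or wild-type LPS replicate 2, 3 or 4), with adjusted p from 0.0570 to 0.0635. Over all alternatives tried the fold change ran from 0.82 to 1.24 and the adjusted p from 0.000265 to 0.121. Cdc45 shares 5.96% of its exon bases with Ufd1 on the opposite strand, and no source states that counting used strand. Ufd1 had a log2 fold change of 0.14 ± 0.05 in the same comparison (adjusted p = 0.137).

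Among the Mcm genes, the estimates were small and above 0, and none passed. Mcm7, a subunit of the ring, stood at 10.3, 9.74, 11.3 and 12.8 CPM in wild-type PBS and at 11.7, 15.1, 14.8 and 13.5 CPM in wild-type LPS. Wild-type LPS replicates 2, 3 and 4 were above every PBS library and replicate 1 was not. Its log2 fold change of 0.32 ± 0.10 missed the threshold (adjusted p = 0.0537). With wild-type LPS replicate 1 left out, Mcm7 rose (0.39 ± 0.09, adjusted p = 0.00777). Over the alternatives its adjusted p ran from 0.00124 to 0.196. Words of 31 bases shared with other genes make up 33.4% of Mcm7, and 12.6% of its exon bases overlap neighbours that include Ap4m1 on the opposite strand. Ap4m1, an adaptor subunit gene of vesicle transport, itself rose by a log2 fold change of 0.24 ± 0.07 (adjusted p = 0.0489), so the level of Mcm7 alone is uncertain.

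Mcm5, another ring subunit, stood at 3.71, 4.43, 4.18 and 6.07 CPM in wild-type PBS and at 5.71, 6.68, 5.90 and 5.50 CPM in wild-type LPS. Wild-type PBS replicate 4 lay within the LPS libraries. The log2 fold change was 0.37 ± 0.14 (adjusted p = 0.105) and, without wild-type PBS replicate 4, 0.53 ± 0.11 (adjusted p = 0.0136). In that setting 3 members passed, Cdc45, Mcm5 and Mcm7, where 9.91% of all genes did. The adjusted p of Mcm5 over the alternatives ran from 0.00958 to 0.273. The other four ring subunit genes, Mcm2, Mcm3, Mcm4 and Mcm6, had log2 fold changes from 0.04 to 0.16 and adjusted p above that of Mcm5. Mcm3 was the most spread of these in wild-type LPS, at 2.29 to 5.001 CPM against 3.05 to 3.67 CPM in wild-type PBS.

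The helicase activators other than Cdc45 were low or spread. Gins1 and Gins2 encode subunits of the GINS complex. Gins1 stood at 0.452 to 0.799 CPM in wild-type PBS and at 0.519 to 1.44 CPM in wild-type LPS (log2 fold change 0.68 ± 0.35, adjusted p = 0.250), and Gins2 at 4.58 to 6.28 and 4.34 to 7.22 CPM (0.13 ± 0.20). Gins2 shares 67.3% of its exon bases and 66.2% of its words with Gse1 on the opposite strand. Gse1 stood far higher, at 96.4 to 153 CPM over the 16 libraries. The level of Gins2 alone is therefore uncertain, also where it enters the licensing counts and scores. Mcm10, which acts as the helicase is switched on, stood at 0.392 to 1.131 CPM in PBS and at 0.916 to 1.34 CPM in LPS (0.49 ± 0.31). The loading factor gene Cdc6 was the 1 licensing member with an estimate below 0, at 0.564 to 0.879 CPM in PBS and 0.405 to 0.702 CPM in LPS (-0.22 ± 0.25). Each of these pairs of groups overlapped and none passed.

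Groups that do not overlap were found for 1 of the 34 genes, against 8.62% of all genes tested (4.22% higher). That gene was Cdt1, the licensing factor, named here after its values were seen. It stood at 1.10, 1.30, 1.43 and 1.41 CPM in wild-type PBS and at 1.62, 1.78, 2.11 and 1.77 CPM in wild-type LPS. Its log2 fold change of 0.48 ± 0.25 did not pass (adjusted p = 0.262).

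Of the synthesis and nucleotide genes, 3 of 7 had an estimate above 0, and 0 of 7 passed with edgeR. Pcna stood at 28.6, 34.6, 33.0 and 35.6 CPM in wild-type PBS and at 33.0, 42.4, 37.2 and 36.3 CPM in wild-type LPS. The 2 groups overlapped, and the log2 fold change was 0.18 ± 0.08 (adjusted p = 0.189). Pcna shares 23.3% of its words with other genes, among them the pseudogene Pcna-ps2. Uhrf1, which recognises hemimethylated DNA behind the fork and brings in the maintenance methyltransferase, stood at 1.22, 0.965, 0.930 and 1.78 CPM in wild-type PBS. It stood at 1.01, 2.80, 1.62 and 1.75 CPM in wild-type LPS. One LPS library was well above the rest and the groups overlapped (log2 fold change 0.55 ± 0.29, adjusted p = 0.253). Uhrf1 shares 24.2% of its words with other genes, among them Gm5648. The ribonucleotide reductase genes Rrm1 and Rrm2, the thymidylate genes Tyms and Tk1 and the repair gene Brca1 had log2 fold changes from -0.19 to 0.02.

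The 4 cell cycle entry genes lay close to 0. Ccne1, whose product starts S phase with Cdk2, stood at 10.8, 12.2, 12 and 10.5 CPM in wild-type PBS and at 9.50, 9.70, 9.40 and 11.3 CPM in wild-type LPS. Wild-type LPS replicate 4 overlapped the PBS libraries, and the log2 fold change of -0.19 ± 0.09 did not pass (adjusted p = 0.228). E2f2, an activator of the E2F family, stood at 1.31, 0.965, 1.129 and 1.57 CPM in PBS and at 1.62, 1.82, 1.03 and 1.27 CPM in LPS (log2 fold change 0.21 ± 0.21, adjusted p = 0.598). E2f1 and Ccna2, the cyclin of S phase and early mitosis, had estimates of -0.09 ± 0.18 and 0.12 ± 0.17.

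In the mitosis group, 0 of 11 passed with edgeR, and 3 of the named genes were low in some LPS libraries only. Mki67 stood at 2.03, 2.11, 1.96 and 2.16 CPM in wild-type PBS and at 1.44, 2.20, 0.822 and 0.836 CPM in wild-type LPS. Its replicate 2 was at the PBS level and replicates 3 and 4 were below every other library of the series. The log2 fold change was -0.63 ± 0.31 (adjusted p = 0.224). Top2a stood at 2.23, 1.60, 1.96 and 2.13 CPM in PBS and at 1.56, 2.52, 0.940 and 0.938 CPM in LPS (log2 fold change -0.40 ± 0.28, adjusted p = 0.407). The 3 libraries with the lowest Mki67 and the 3 with the lowest Top2a were the same, wild-type LPS replicates 3 and 4 and knockout LPS replicate 2.

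Ccnb1, the gene of cyclin B1, stood at 0.580, 0.814, 0.498 and 0.772 CPM in wild-type PBS and at 0.244, 0.720, 0.264 and 0.228 CPM in wild-type LPS. Replicates 1, 3 and 4 were below every PBS library and replicate 2 was among them. The log2 fold change of -0.83 ± 0.35 did not pass (adjusted p = 0.152). With wild-type LPS replicate 2 left out, the library with the most counts, Ccnb1 fell by 1.43 on the log2 scale (adjusted p = 0.0117) and was the only member called, where 4.62% of all genes passed. Over the alternatives the adjusted p ran from 0.0117 to 0.333. Ccnb1 shares 27.8% of its words with other genes, including the pseudogene Ccnb1-ps. Wild-type LPS replicate 1, which lacked the Lcn2 response, held Ccnb1 at 0.244 CPM, from 8 counts. The cause of the low values was not tested.

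The remaining mitosis genes had estimates from -0.21 to 0.20 and overlapping groups. They were Ccnb2, the gene of a second B-type cyclin, Cdk1, the chromosomal passenger genes Aurkb and Birc5, the spindle motor genes Kif11 and Cenpe, the spindle assembly gene Tpx2, and Plk1. Kif11 stood at 1.39 to 2.88 CPM in wild-type PBS and at 1.41 to 2.20 CPM in wild-type LPS (-0.21 ± 0.24), and Tpx2 at 2.12 to 2.89 and 1.70 to 3.11 CPM (-0.18 ± 0.17). Cdk1 stood at 0.186 to 0.377 CPM in PBS and at 0.147 to 0.380 CPM in LPS, with a log2 fold change of -0.11 ± 0.40. The untested Bub1 stood at 0.213 to 0.392 CPM in PBS and at 0.0916 to 0.260 CPM in LPS.

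**Figure D2:**
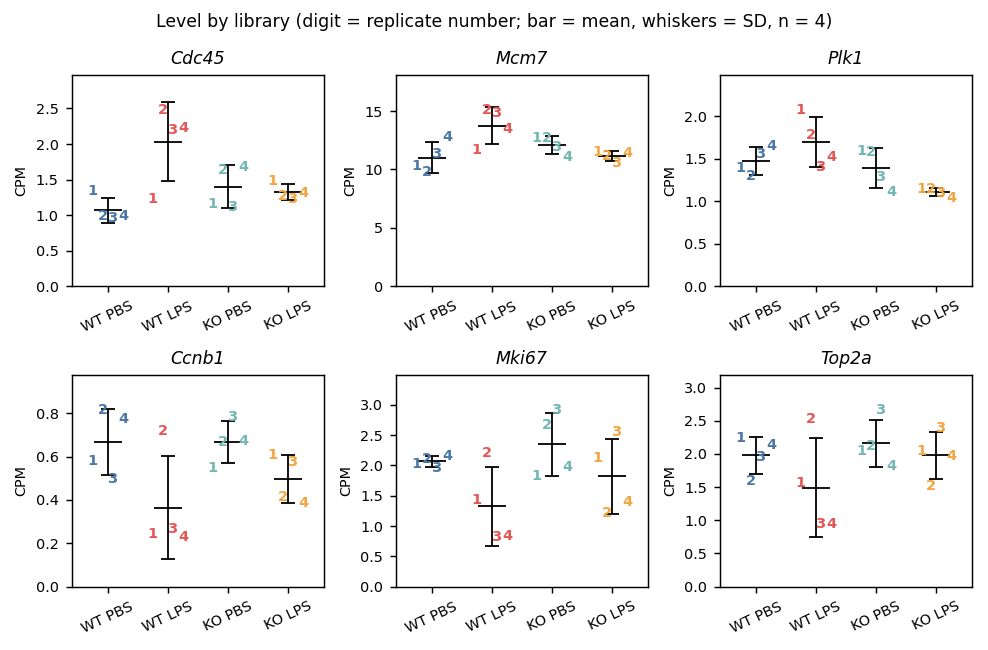
CPM of Cdc45, Mcm7, Plk1, Ccnb1, Mki67 and Top2a in each library, printed as its replicate number, with the mean as a bar and the SD as whiskers (n = 4 per group). Replicate 1 of wild-type LPS sits apart from its group for Cdc45 (1.22 CPM) and replicate 2 for Ccnb1 (0.720 CPM).

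Averaged by role, the same wild-type LPS libraries gave different orders for licensing and mitosis. A role score is the mean log2 CPM of the genes of a role minus the wild-type PBS mean. For the 12 licensing genes it was -0.01, 0.56, 0.32 and 0.26 in wild-type LPS replicates 1 to 4, against -0.16 to 0.21 in wild-type PBS. For the 12 mitosis genes it was -0.39, 0.14, -0.50 and -0.38, against -0.10 to 0.06. Replicates 2, 3 and 4 were thus above the PBS range for licensing, and replicates 1, 3 and 4 below it for mitosis. Scores of several marker lists were also lowest in wild-type LPS replicate 1. In replicates 1 to 4 the score of 8 hippocampal neuron markers was -0.31, 0.66, -0.18 and 0.21, against -0.24 to 0.43 in wild-type PBS. That of 8 endothelial markers was -0.16, 0.27, 0.07 and 0.36, and that of leukocyte markers 0.65, 1.71, 1.40 and 1.96. The score of 8 microglial markers was -0.07, 0.59, 0.33 and 0.29. The summed level of the microglial markers was 265 to 492 CPM in wild-type LPS and 263 to 317 CPM in wild-type PBS. Of these markers C1qa and Itgam rose, P2ry12 fell and 5 of 8 did not pass. The summed level of 8 oligodendrocyte precursor markers was 264 to 282 CPM in wild-type LPS and 304 to 351 CPM in wild-type PBS, and Olig1, C1ql1 and Gpr17 fell. Of 10 markers of neural progenitors and immature neurons, 0 passed with edgeR, and their summed level was 103 to 153 CPM against 105 to 157 CPM. Of 14 leukocyte markers only 5 were tested, of which S100a8, S100a9 and Ngp rose, with a sum of 2.05 to 15.7 CPM against 0.995 to 1.33 CPM. Endothelial markers summed to 206 to 305 CPM against 218 to 272 CPM, where Ly6c1 rose, Flt1 and Tek fell and 5 of 8 did not pass. The part of these cell types in the scores was not tested.

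**Figure D3:**
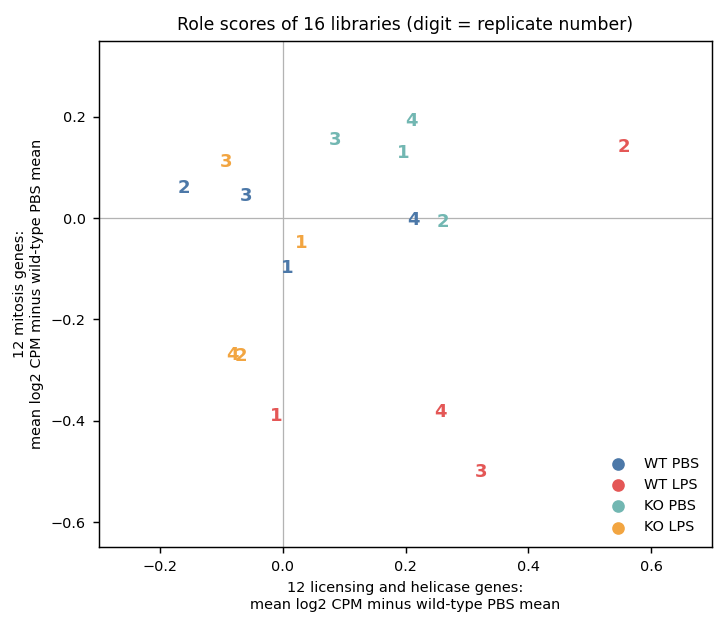
Role score of the 12 mitosis genes (vertical) against that of the 12 licensing and helicase genes (horizontal), both as mean log2 CPM minus the wild-type PBS mean, 1 digit per library giving its replicate number and coloured by group. Wild-type LPS replicate 2 lies at 0.56 and 0.14, replicates 3 and 4 lie to the right and low, and the knockout LPS libraries lie near 0 on the horizontal axis.

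In the knockout, no member passed between LPS and PBS. None of the 34 genes was called by edgeR, where 0 of all 16269 genes were, and DESeq2 (0.0184% of all genes) and limma-voom (0 genes) also called 0 members. At an unadjusted p under 0.05 there were 2 members, or 5.88%, against 6.88% of all genes. All 12 licensing genes had an estimate below 0, with a median of -0.22, as had 9 of 11 mitosis genes with a median of -0.23, where 46.5% of all genes were above 0. The number of licensing genes below 0 ran from 10 to 12 without each library in turn, and the mitosis median was -0.14 without knockout LPS replicate 4. Cdc45 stood at 1.16, 1.64, 1.12 and 1.68 CPM in knockout PBS and at 1.48, 1.27, 1.23 and 1.31 CPM in knockout LPS. Those groups overlapped, with a log2 fold change of -0.08 ± 0.22 (adjusted p = 0.937). Uhrf1 was the 1 member of 34 whose groups did not overlap, where 6.55% of all genes were so. It stood at 2.02, 1.73, 1.71 and 1.31 CPM in knockout PBS and at 1.09, 0.975, 1.29 and 0.864 CPM in knockout LPS (log2 fold change -0.68 ± 0.29, adjusted p = 0.703). Mki67 stood at 1.83, 2.67, 2.91 and 1.98 CPM in knockout PBS and at 2.12, 1.22, 2.55 and 1.40 CPM in knockout LPS, with a log2 fold change of -0.36 ± 0.30 (adjusted p = 0.760). Top2a differed less, at 2.04, 2.12, 2.66 and 1.81 against 2.04, 1.51, 2.39 and 1.97 CPM (-0.13 ± 0.27). Lcn2 stood at 0 to 0.119 CPM in these knockout LPS libraries.

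**Figure D4:**
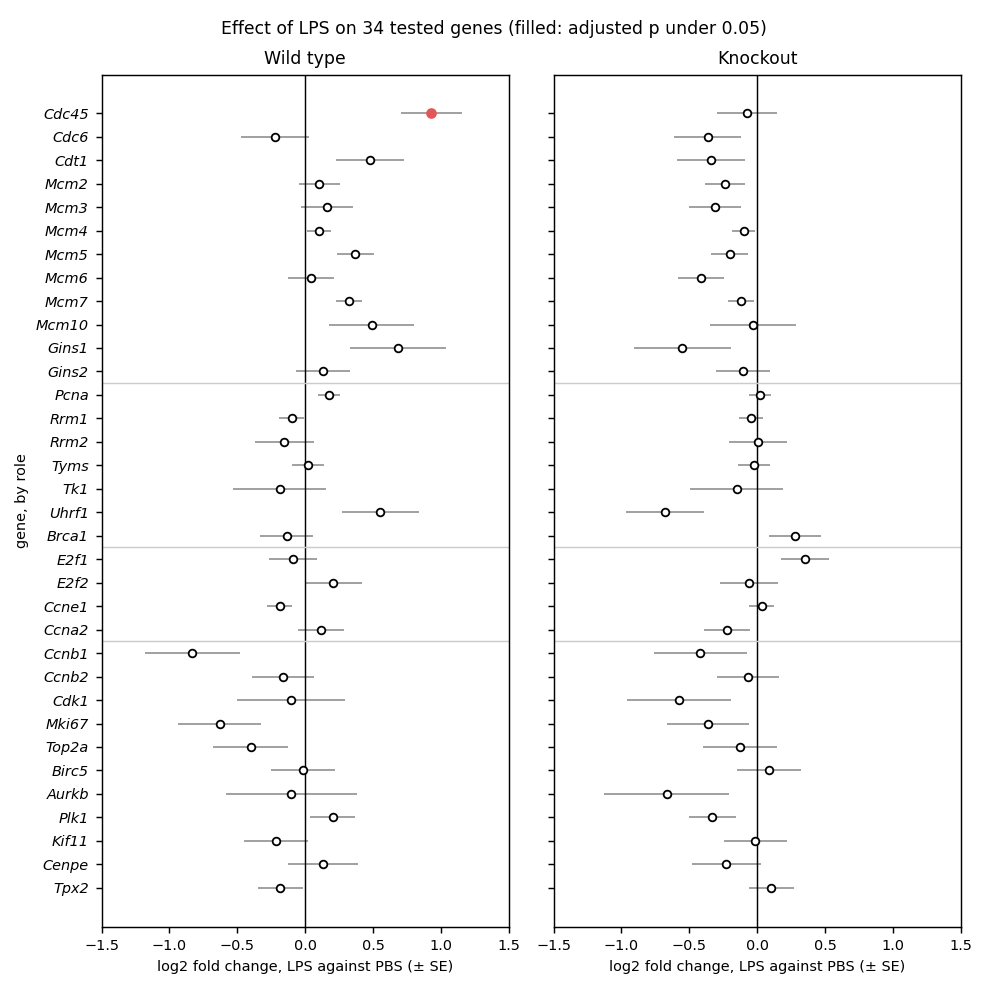
Log2 fold change of each of the 34 tested genes between LPS and PBS in wild type (left) and in the knockout (right), with SE as whiskers, genes ordered by role and a filled point for an adjusted p under 0.05. Cdc45 in wild type, at 0.93, is the 1 filled point.

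Under PBS, the knockout and wild type did not differ in any member by edgeR. None of 34 passed, against 0.0369% of all genes. DESeq2 called 0 members and 0.104% of all genes, limma-voom called Mcm5 and 1.89% of all genes, and 1 member had an unadjusted p under 0.05 (2.94%, against 5.17% of all genes). That gene was Mcm5, at 6.53, 6.37, 5.29 and 5.74 CPM in knockout PBS and 3.71 to 6.07 CPM in wild-type PBS, with a log2 fold change of 0.38 ± 0.14 (adjusted p = 0.918). Of the 12 licensing genes 11 had an estimate above 0, with a median of 0.15, and of the mitosis genes 6 of 11 did. Without wild-type PBS replicate 4 all 12 licensing genes were above 0 with a median of 0.25, as were 8 of the 11 mitosis genes. The proliferation markers Mki67 (0.18 ± 0.30) and Top2a (0.12 ± 0.27) did not pass. Neural progenitor markers summed to 128 to 232 CPM in knockout PBS and 105 to 157 CPM in wild-type PBS, and 0 of 10 passed. The score of this list was 0.09, 0.76, 0.08 and 0.01 in knockout PBS replicates 1 to 4, against -0.07 to 0.08 in wild-type PBS, so replicate 2 stood apart. The library labelled knockout PBS replicate 1 is part of this comparison, and without it 0 members and 0.0303% of all genes passed.

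Under LPS, 1 of the 34 genes passed between the knockout and wild type: Plk1, which was lower in the knockout. In this comparison 11.9% of all genes passed (4.61% higher and 7.28% lower). Plk1 (ENSMUSG00000030867, chromosome 7, 122159439 to 122169873, plus strand) stood at 2.08, 1.78, 1.41 and 1.52 CPM in wild-type LPS and at 1.14, 1.15, 1.10 and 1.04 CPM in knockout LPS. All 4 knockout libraries were below all 4 wild-type libraries. The log2 fold change was -0.61 ± 0.17 (SE, n = 4 and 4; adjusted p = 0.0309, edgeR). In PBS the levels were 1.39, 1.30, 1.56 and 1.65 CPM in wild type and 1.59, 1.58, 1.29 and 1.11 CPM in the knockout, so the knockout PBS libraries overlapped both. The log2 fold change from PBS to LPS was 0.20 ± 0.17 in wild type (adjusted p = 0.508) and -0.33 ± 0.17 in the knockout (adjusted p = 0.703), and neither passed. The call was lost without wild-type LPS replicate 2 or 4 or any 1 of the 4 knockout LPS libraries, with adjusted p from 0.0513 to 0.0752. Over all alternatives the fold change ran from -0.69 to -0.47 and the adjusted p from 0.0191 to 0.0844. Plk1 shares 18.7% of its words with other genes, among them the pseudogene Plk-ps1, overlaps Gm44985 on the opposite strand over 7.09% of its exon bases, and had 33 to 89 counts a library.

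Groups that do not overlap were found for 3 of 34 members, Cdt1, Mcm7 and Plk1, all lower in the knockout, against 14.3% of all genes tested (6.98% lower). Mcm7 stood at 11.5, 11.1, 10.6 and 11.4 CPM in knockout LPS, below the 11.7 to 15.1 CPM of wild-type LPS (log2 fold change -0.30 ± 0.10, adjusted p = 0.0528). Ap4m1, which overlaps it, was lower too, by a log2 fold change of -0.43 ± 0.07 (adjusted p = 0.00366). Cdt1 stood at 0.632, 1.24, 1.07 and 1.52 CPM in knockout LPS (-0.71 ± 0.25, adjusted p = 0.0769). Cdc45 had a log2 fold change of -0.62 ± 0.22 (adjusted p = 0.0766), with knockout LPS libraries above wild-type LPS replicate 1 and below the other 3. Of the 12 licensing genes 11 had an estimate below 0, with a median of -0.31, and of the mitosis genes 7 of 11 were above 0, with a median of 0.04. The mitosis median ran from -0.014 to 0.27 without each library in turn and moved by more than 1.5 times without any 1 of the 8 LPS libraries. It was highest without wild-type LPS replicate 2, where 8 of the 11 mitosis genes were above 0 and 9 of the 12 licensing genes below 0. Mki67 and Top2a had estimates of 0.45 ± 0.31 and 0.40 ± 0.28, and Ccnb1 stood at 0.608, 0.414, 0.576 and 0.388 CPM in knockout LPS (0.41 ± 0.35). None of these 3 passed.

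Markers of other cell types also differed between the genotypes under LPS. Of 8 microglial markers C1qa (-1.36 ± 0.26), Itgam (-1.10 ± 0.27) and Aif1 (-0.74 ± 0.22) were lower in the knockout and P2ry12 was higher (1.47 ± 0.33). The summed level of the 8 was 282 to 350 CPM in knockout LPS and 265 to 492 CPM in wild-type LPS. Of 8 endothelial markers 4 were lower (Ly6c1, Pecam1, Cldn5 and Esam), with a sum of 173 to 215 CPM against 206 to 305 CPM. Their sum was lower in the knockout under PBS too, at 183 to 210 CPM against 218 to 272 CPM, although 0 of 8 passed there. Of the 5 tested leukocyte markers S100a8 and S100a9 were lower, with a sum of 0.486 to 2.66 CPM against 2.05 to 15.7 CPM. Of 8 oligodendrocyte precursor markers C1ql1, Gpr17 and Olig1 were higher, with a sum of 312 to 339 CPM against 264 to 282 CPM. Of 10 progenitor and immature neuron markers 0 passed with edgeR, with a sum of 119 to 138 CPM against 103 to 153 CPM. The part of these cell types in the differences of the members was not tested.

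Without wild-type LPS replicate 1, 6 members were lower in the knockout under LPS, where 24.3% of all genes then passed (13.3% lower). They were Cdc45 (-0.80 ± 0.18), Mcm3 (-0.65 ± 0.15), Mcm7 (-0.37 ± 0.09), Gins1 of the GINS complex (-1.12 ± 0.34), Uhrf1 (-0.96 ± 0.26) and Plk1 (-0.50 ± 0.17), of which 4 belong to the licensing group. Mcm3 and Gins1 are named after their values were seen. In the same setting 2 members, Cdc45 and Mcm7, rose in wild type, where 20.5% of all genes passed. When replicate 2 of wild-type LPS was left out, the 1 member called was Ccnb1, higher in the knockout by 1.01 ± 0.28 (adjusted p = 0.0472), where 6.64% of all genes passed. Without wild-type PBS replicate 2 or 4 the members called were Plk1 and Mcm7 (10.9% and 14.1% of all genes), and without knockout LPS replicate 1 Gins1 alone (9.27% of all genes).

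The difference between the genotypes in their change from PBS to LPS was tested as an interaction. None of the 34 members passed with edgeR, against 1.15% of all genes, although 7 had an unadjusted p under 0.05 (20.6%, against 21.6% of all genes). DESeq2 called 1 member, Mcm7, where it called 7.87% of all genes, and limma-voom called 7, where it called 24.8%. All 12 licensing genes had an interaction estimate below 0, with a median of -0.46, and of the mitosis genes 4 of 11 did. These estimates share libraries with the comparisons above and are not independent of them. The estimate was -1.003 ± 0.31 for Cdc45 (adjusted p = 0.0941), -0.44 ± 0.14 for Mcm7 (adjusted p = 0.0929) and -1.23 ± 0.41 for Uhrf1 (adjusted p = 0.105). Without wild-type LPS replicate 1, 4 members passed, all below 0, where 16.1% of all genes did (8.88% lower). They were Cdc45 (-1.18 ± 0.25), Uhrf1 (-1.42 ± 0.36), Mcm7 (-0.51 ± 0.12) and Mcm3 (-0.64 ± 0.20). Without wild-type PBS replicate 4, 3 passed, Uhrf1, Mcm5 and Mcm7, where 5.75% of all genes did.

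Other genes of the same processes, given as whole lists, showed a few calls each. Of 41 tested further replication genes, 5 rose in wild type after LPS (12.2%, where 4.72% of all genes rose) and 0 fell, with a median of 0.09. They included the flap endonuclease gene Fen1 (0.49 ± 0.10), the fork protection gene Timeless (0.59 ± 0.14), the clamp loader gene Rfc5 (0.34 ± 0.10) and the polymerase tether gene Wdhd1 (0.38 ± 0.11). The numbers were 1 and 1 without wild-type LPS replicate 2, where 2.15% of all genes rose and 2.48% fell. They were 9 and 1 without replicate 1, where 10.9% rose and 9.59% fell. Between knockout and wild type under LPS 4 were lower (9.76%, where 7.28% of all genes were), namely Timeless (-0.59 ± 0.14), the polymerase alpha-primase subunit gene Pola2 (-0.59 ± 0.16), Wdhd1 (-0.40 ± 0.11) and Fen1 (-0.34 ± 0.10). The 1 that was higher, Gins3 (0.46 ± 0.14), is named after its values were seen. These numbers without wild-type LPS replicate 1 were 8 lower and 2 higher (13.3% and 10.9% of all genes), and without replicate 2 they were 1 and 0 (3.93% and 2.71% of all genes). Of 46 tested further mitosis genes, 2 rose in wild type (4.35%), Cdc25b (0.59 ± 0.12), a phosphatase that activates Cdk1, and the condensin gene Ncapd2 (0.29 ± 0.08). Both were lower in the knockout under LPS (-0.76 ± 0.12 and -0.38 ± 0.08), and both passed the interaction (-0.82 ± 0.17 and -0.49 ± 0.11, adjusted p = 0.04997 for both). With wild-type LPS replicate 1 left out, 5 rose in wild type and 6 were lower in the knockout under LPS (10.9% and 13.0%, close to the shares of all genes above). Without replicate 2 no further mitosis gene passed the interaction, where 0.262% of all genes did. With the replicate number as a block, or with wild-type PBS replicates 2 and 3 summed, 0 of all genes passed the interaction. The same held without knockout LPS replicate 1, 2 or 4 or knockout PBS replicate 2 or 3. It also held without wild-type LPS replicate 3 or wild-type PBS replicate 2 or 3. Cdc25b and Ncapd2 thus lost their interaction calls in all these settings. Of 17 regulators of cell cycle transcription, 0 passed in any of the 5 comparisons with edgeR.

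Among 15 tested genes that hold the cycle back, only Cdkn1a rose in wild type after LPS, where 4.72% of all genes rose. Cdkn1a, which encodes the inhibitor p21 of the cyclin-dependent kinases, had a log2 fold change of 2.20 ± 0.38 (adjusted p = 0.00455). Under LPS 5 of these 15 genes (33.3%) were lower in the knockout and 0 higher, where 7.28% of all genes were lower and 4.61% higher. Among the 5 were Cdkn1a (-2.03 ± 0.38), the antiproliferative gene Btg2 (-1.18 ± 0.25) and the stress genes Gadd45g (-0.43 ± 0.08) and Gadd45b (-0.41 ± 0.11). Of 10 G1 cyclins, kinases and their inducers, only Myc passed, lower in the knockout under LPS (-0.77 ± 0.17). Without wild-type LPS replicate 1, 3 of the 15 rose in wild type, as did 3 of the 10, where 10.9% of all genes rose. Without replicate 2 the number of the 15 lower in the knockout under LPS was 3, where 3.93% of all genes were lower.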

How the data were processed

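Whole hippocampus RNA was sequenced in 16 libraries prepared with a NEBNext Ultra kit, per the labels' protocols. The deposited table holds estimated counts per gene and library, rounded to whole numbers by the authors before deposit. Salmon 1.9.0, DESeq2, DESeq and MultiQC 1.13 are listed, without their roles, per the submitters' processing notes, and the genome build and strand setting are not given in the sources used here. Symbols, positions and exon lengths came from GENCODE M21 on GRCm38, where 19329 of 19449 identifiers had a symbol. Promoters came from RefSeq on GRCm38.p6.

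Low counts were removed with edgeR 4.0.16 in R 4.3.3 (filterByExpr), leaving 16269 genes that hold 99.97% of the counts. Libraries were scaled by TMM. A quasi-likelihood model with a mean per group was fitted over all 16 libraries, with Benjamini-Hochberg adjustment over all genes tested at 0.05. The SE was computed as |log2 fold change| over the square root of F, and log2 CPM used a prior count of 2. The biological coefficient of variation was 0.177. Errors reflect the spread between libraries, from which the model estimated them. Molecules carried no identifiers. The code was tested on simulated data, where DESeq2 gave a larger share of false calls than its threshold of 0.05. DESeq2 therefore served only as an alternative. Same-numbered replicates were not treated as pairs. Wild-type PBS replicates 2 and 3 were the most alike pair (chi-square per gene 3.78, against 12.3 to 113 for the other pairs within groups). They differed by more than sampling noise and were kept as 2 libraries.

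The members and gene lists were chosen with earlier results of these data known. Named genes were members passing in any of the 5 comparisons, Mki67, Top2a, Pcna, Mcm5 and Ccne1, the 2 members per role with the smallest p between LPS and PBS in wild type, and up to 4 passing genes per further list. Alternatives were DESeq2 1.42.0, RLE scaling, limma-voom with quality weights per sample (limma 3.58.1), no filter, a minimum CPM of 1 in 4 libraries, a replicate block, separate fits of the 8 libraries in a comparison, and omission of each library in turn. Leaving out 2 libraries against their labels, leaving out 2 without choroid plexus transcripts, and summing wild-type PBS replicates 2 and 3 were chosen after seeing the data. Shared words are runs of 31 bases in GENCODE M21 transcripts.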

Additional observations from a re-analysis of the deposited data

Results flagged for a closer look

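Of 44 groups of 4 libraries examined for the 11 named genes, 3 held a library far from the other 3 of its group, and chance gives about 1 in 20. Cdc45 stood at 1.33 CPM in wild-type PBS replicate 1, where the other 3 libraries held 0.963 to 0.995 CPM. Ccne1 stood at 11.3 CPM in wild-type LPS replicate 4, above 9.40 to 9.70 CPM in the rest. Ccnb1 stood at 0.720 CPM in wild-type LPS replicate 2, the library with the most counts, against 0.228 to 0.264 CPM. The causes were not tested.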

How the results depend on the processing

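The number of members called moved with the test and with single libraries, and the causes were not tested. The main counts were 1 (LPS against PBS in wild type), 0 (the same in the knockout), 0 (knockout against wild type under PBS), 1 (under LPS) and 0 (interaction). DESeq2 gave 2 in wild type, 3 between the genotypes under LPS and 1 for the interaction, where 12.9%, 17% and 7.87% of all genes passed. In the same order limma-voom gave 7, 7 and 7 (20.6% of members each, against 28.8%, 25% and 24.8% of all genes), and 1 between the genotypes under PBS (1.89% of all genes). The CPM filter gave 2 in wild type and 2 between the genotypes under LPS (8.93% and 12.9% of all genes), and fitting only the 8 libraries compared gave 0 and 0 (0% and 2.74%). Leaving out 1 library each gave 0 to 3 in wild type, 0 to 6 between the genotypes under LPS and 0 to 4 for the interaction. Leaving out the 2 libraries against their labels, or the 2 without choroid plexus transcripts, gave 2, 6 and 3 in either case, where 18.8% to 19.9%, 23.7% to 24.4% and 14.3% to 14.6% of all genes passed. Summing wild-type PBS replicates 2 and 3 gave 0 in wild type (4.05% of all genes).

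The change of Cdc45 in the knockout turned from below to above 0 with limma-voom (0.036) and without knockout PBS replicate 2 or 4. Leaving out 1 library each, it ran from -0.17 to 0.022, and the difference of Plk1 between the genotypes under PBS from -0.15 to 0.0096, above 0 only without knockout PBS replicate 4. None of these passed. With the replicate number as a block, Cdc45 (0.91) and Plk1 (-0.61) kept their calls and no member was added. Over all genes the block gave 1069 and 1619 calls in those comparisons, against 1394 and 1935. Same-numbered libraries deviated together with correlations of -0.23 to 0.36, and 4 of 16 libraries correlated best with their own number, so the numbers do not pair them. Of the other recomputed values of single genes, 743 kept their direction and their side of the threshold, 40 newly passed it and 14 no longer did. Bub1, Aurkb and Ccnb1 held 3 to 36 counts a library, so counting error adds to the spread between libraries for these genes.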
